A study of Mus musculus with 16 samples.

Results

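The BCL-2 family was described through 10 genes (Bcl2, Bcl2l1, Mcl1, Bax, Bak1, Bcl2l11, Bid, Bbc3, Pmaip1 and Bad) on whole-genome arrays of mouse CD8 T cells, a class of lymphocyte with killer function. A probe was taken as a member where it was no control probe and its gene name in the files was one of these symbols or an older synonym. All 10 genes were found, with 19 of the 41174 non-control probes, and all 19 probes and 10 genes passed the filter on dim signals that left 27350 probes and 18405 genes. Bax, Bid, Bbc3 and Pmaip1 had 1 probe each, and the other 6 genes had 2 or 3.

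CD8+Thy1.2+ cells were taken from female C57BL/6N mice at an age of 7 weeks and sorted by flow cytometry on CD44, a surface adhesion receptor, into CD44hi cells of memory phenotype and CD44lo naive cells, and the labels name no transgene or engineered allele in any group. The sort is by phenotype, so the CD44hi cells are not of 1 known specificity. The 4 groups of 4 arrays were memory cells stimulated for 4 h with PMA (10 ng/mL) and ionomycin (500 ng/mL), naive cells stimulated the same way, memory cells kept for 4 h in medium (resting) and naive cells kept in medium. PMA activates protein kinase C and ionomycin lets calcium into the cell, so the pair bypasses the T cell receptor. The sort and culture were carried out on 4 separate occasions, per the series' design text.

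BCL-2 proteins decide at the mitochondrial outer membrane whether a cell dies by apoptosis. Guardians such as BCL-2, BCL-XL (the main product of Bcl2l1) and MCL-1 hold the pore formers BAX and BAK in check, and BH3-only proteins such as BIM (Bcl2l11), PUMA (Bbc3), NOXA (Pmaip1), BID and BAD relieve that check or activate the pore formers. In T cells BCL-2 and MCL-1 are known for keeping resting and memory cells alive, BCL-XL for its induction after activation, and BIM and PUMA for removing cells deprived of cytokine or at the end of a response.

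Stimulation was accompanied by large and opposite changes at the ends of the family. By the probe that stands for each gene, Bcl2l1 was over 20 times higher in stimulated than in resting cells of both kinds, Bid about 4 times higher and Bcl2 2.56 to 3.42 times higher, whereas Bbc3 was 14.5 to 15.8 times lower. Other probes gave smaller rises, down to 3.56-fold for Bcl2l1 and 1.27-fold for Bcl2. Memory cells had more Bcl2 transcript than naive cells, at rest and after stimulation, and less Mcl1 after stimulation. Bcl2l11 was also higher in memory cells, but its 5′ probe was not called after stimulation. The calls of its 3′ probe were lost in several settings. For none of the 10 genes did the response of memory cells differ from that of naive cells by the test of that difference.

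The sequences of 3 probes are shown because they lie 5′ of another probe of the same gene that gave a response of another size, and each is 60 bases long. The Bcl2 probe lies on the minus strand at chr1:106612249-106612308, that of Bcl2l1 on the minus strand at chr2:152570306-152570365, and that of Bcl2l11 on the plus strand within chr2:127888010-127899105, a span of 11096 bases, so that it joins 2 stretches of the genome. Probe positions are those in the files, on build mm7 (NCBI35) of the mouse genome, and the exon or untranslated stretch a probe covers was not analysed here.
Bcl2: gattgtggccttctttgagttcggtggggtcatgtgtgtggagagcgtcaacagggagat
Bcl2l1: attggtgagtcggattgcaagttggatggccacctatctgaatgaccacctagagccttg
Bcl2l11: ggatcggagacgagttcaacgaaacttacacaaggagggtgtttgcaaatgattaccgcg

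Levels are given as log2 intensity minus the 75th percentile of the array, so that 0 is that percentile and 1 unit is a doubling. They are relative to the other RNA on the array and cannot show a change in total RNA. In a bulk sample, fewer cells of a type and less RNA per cell cannot be told apart. The 75th percentile was 484.6 to 669.8 intensity units. Probes well above background made up 59.3% to 61.4% on memory stimulated, 60.8% to 63.4% on naive stimulated, 63.9% to 66.5% on memory resting and 60.6% to 64.3% on naive resting arrays. Replicates of the same group correlated at 0.9784 to 0.9953 over genes, which are not independent replicates. Each group was hybridised on a slide of its own, so slide and group cannot be told apart in any comparison below. The defining T cell genes Cd3e and Cd8a were well above background on all arrays, and so was Cd4. Group means were 3.49 to 5.23 for Cd8a and -4.52 to -4.16 for Cd4. Passing this limit therefore does not show that the cells were pure.

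Genes of other cell types also moved between the groups. Of 8 tested myeloid and neutrophil markers 6 fell in both responses, and the summed level of the 9 on the array (in multiples of the 75th percentile) was 2.79 to 4.35 in memory stimulated, 1.56 to 3.13 in naive stimulated, 13.1 to 22 in memory resting and 8.31 to 14.2 in naive resting cells. Elane passed the background limit only on memory resting arrays, on fewer than 3 of them, and was not tested. The summed level of 6 B cell markers was 0.216 to 0.297 in memory stimulated, 0.247 to 0.443 in naive stimulated, 1.35 to 1.64 in memory resting and 1.67 to 2.27 in naive resting cells, and Pax5 passed the background limit on no array. Of 5 NK cell markers, which memory phenotype CD8 T cells can also express, 4 were higher in memory than in naive cells at rest and 5 after stimulation. Their summed level was 4.9 to 7.62 in memory stimulated, 1.96 to 2.95 in naive stimulated, 5.31 to 6.58 in memory resting and 1.04 to 1.92 in naive resting cells. Of 4 tested dendritic cell markers, 3 were higher in memory than in naive cells at rest, and the summed level of 6 was 2.29 to 5.07 in memory stimulated, 1.11 to 2.65 in naive stimulated, 2.22 to 2.66 in memory resting and 0.54 to 1.04 in naive resting cells. Of all genes, 39.1% fell in memory and 30.9% in naive cells on stimulation. In memory cells 13.9% of all genes were higher than in naive cells at rest, and 10.1% after stimulation. The 5 erythrocyte and platelet markers summed to 0.365 at most. The part of such cells in the results below was not tested.

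Stimulation was tested with limma over all genes in each kind of cell, and a gene was called at an adjusted p under 0.05. In memory cells 6 of the 10 genes rose and 3 fell, where 70.4% of all 18405 genes were called (31.4% rose and 39.1% fell). In naive cells 5 rose and 3 fell, where 69.2% of all genes were called (38.3% rose and 30.9% fell). The 3 that fell were Mcl1, Bbc3 and Bad in both kinds of cell. Bad is counted here by a probe of the opposite strand, which is not a measure of its mRNA. The 4 stimulated arrays lay all above or all below the 4 resting arrays for 8 of the 10 genes in memory cells, against 64.7% of all genes, and for 7 in naive cells, against 60.6%. These counts stand against a stimulus that moved most genes, so the results below are the sizes and directions of single genes. The median change of the 10 genes was 0.45 in memory and 0.40 in naive cells, and that of all genes -0.16 in memory and 0.15 in naive cells.

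**Figure D1:**
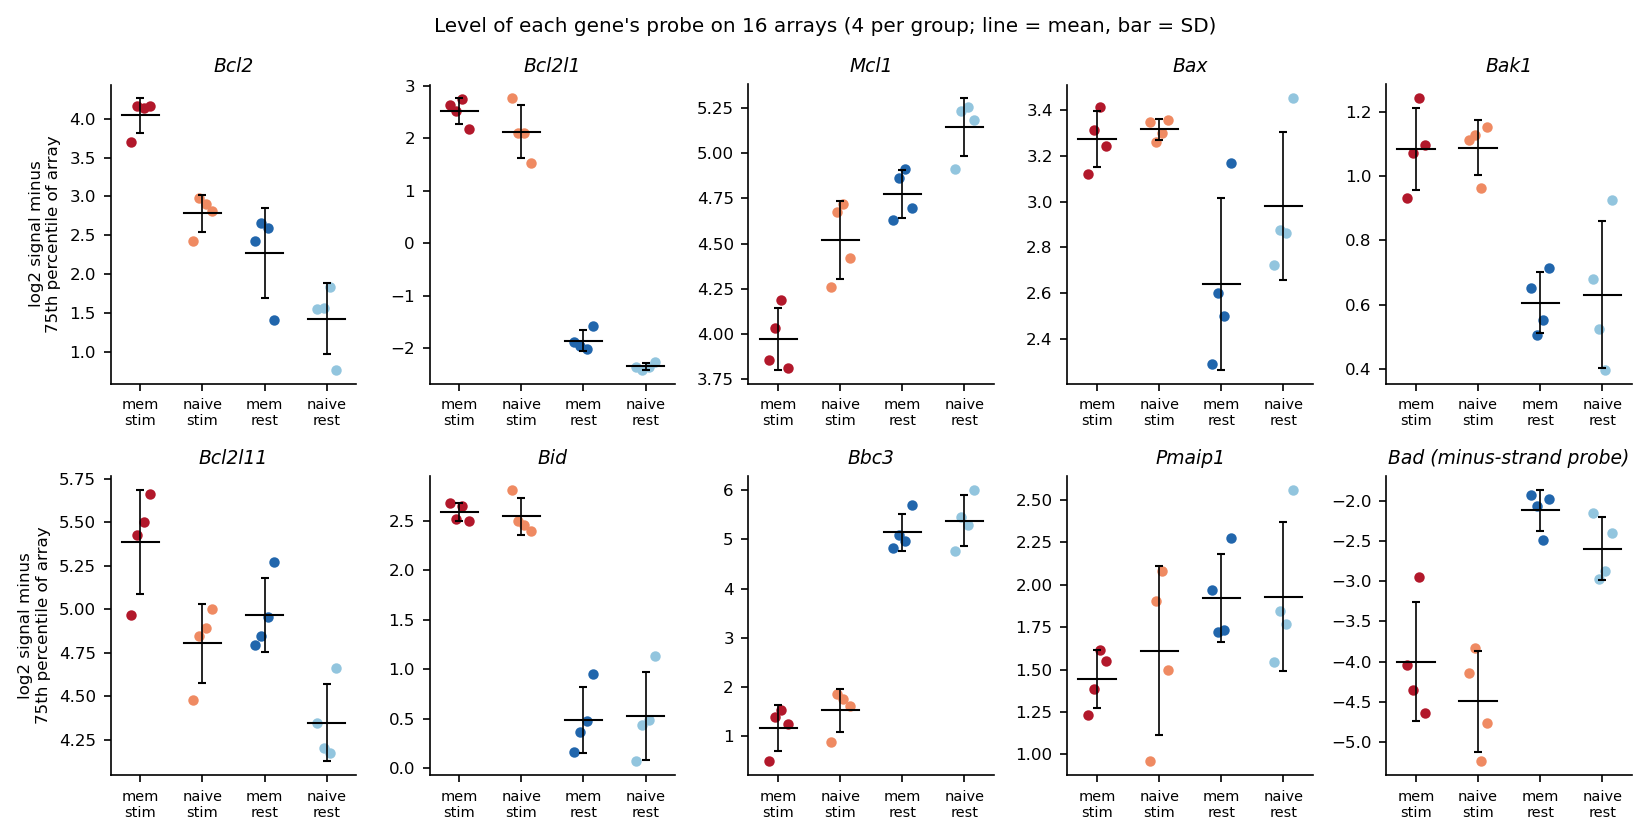
Level of the probe that stands for each of the 10 genes, as log2 signal minus the array's 75th percentile, on the 16 arrays. Points are arrays, lines are means and bars are SD (n = 4 per group), each panel has its own scale, and the panel of Bad shows a probe of the opposite strand. Stimulated and resting points of Bcl2l1, Bid and Bbc3 are apart in both kinds of cell, and those of Pmaip1 overlap in naive cells.

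Among the guardians, Bcl2l1 had the largest rise. The probe that stands for it (minus strand, chr2:152521752-152521811) was at 2.62, 2.51, 2.74 and 2.17 on memory stimulated arrays, against -1.88, -1.96, -2.02 and -1.57 on memory resting arrays. On naive stimulated arrays it was at 2.76, 2.09, 2.10 and 1.54, against -2.35, -2.41, -2.36 and -2.26 on naive resting arrays. No stimulated array came near a resting one, and the lowest stimulated array was a naive one. The change was 4.37 ± 0.20 in memory cells (SE; 20.7-fold, adjusted p = 5.48e-11) and 4.47 ± 0.20 in naive cells (22.1-fold, adjusted p = 4.52e-11).

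All 3 Bcl2l1 probes, which span 49099 bases, rose in both kinds of cell, by unequal amounts. The probe whose sequence is printed above rose by 3.89 ± 0.25 in memory and 3.34 ± 0.25 in naive cells. The third probe (minus strand, chr2:152570851-152570910) was well above background on 3 of 4 naive resting arrays and on all other arrays, and rose by 1.93 ± 0.28 in memory and 1.83 ± 0.28 in naive cells. For all 3 probes the responses are called with adjusted p of 2.72e-05 or less. Bcl2l1 thus rose by every probe, while the size depends on the probe.

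Bcl2 also rose in both kinds of cell. Its probe printed above was at 3.71, 4.17, 4.13 and 4.16 on memory stimulated arrays, against 2.42, 2.65, 2.59 and 1.41 on memory resting arrays, a change of 1.77 ± 0.27 (SE; adjusted p = 2.53e-05). In naive cells it was at 2.43, 2.98, 2.91 and 2.81 on stimulated arrays, against 1.54, 1.56, 1.83 and 0.77 on resting arrays, a change of 1.35 ± 0.27 (adjusted p = 3.34e-04). The groups did not overlap in either kind of cell, and replicate 4 was the lowest resting array in both. The second probe (minus strand, chr1:106610589-106610648) rose by 1.24 ± 0.33 in memory and 1.30 ± 0.33 in naive cells. The third (minus strand, chr1:106438098-106438157), which lies 174151 bases away toward the 3′ end and is spotted 10 times per array, rose by 0.62 ± 0.12 in memory cells (adjusted p = 2.41e-04) and 0.34 ± 0.12 in naive cells (adjusted p = 0.0178).

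Mcl1, whose protein is short-lived and kept up by constant synthesis, fell by the probe that stands for it. That probe (plus strand, chr3:95536882-95536941) was at 3.86, 4.03, 4.19 and 3.81 on memory stimulated arrays, against 4.63, 4.86, 4.91 and 4.70 on memory resting arrays, and fell by 0.80 ± 0.13 (SE; adjusted p = 5.8e-05). It was at 4.26, 4.67, 4.72 and 4.42 on naive stimulated arrays, against 4.91, 5.23, 5.25 and 5.18 on naive resting arrays, and fell by 0.63 ± 0.13 (adjusted p = 5.61e-04). The other Mcl1 probe, 1312 bases nearer the 5′ end (plus strand, chr3:95535570-95535629), went the other way. It was at 4.24, 4.43, 4.38 and 4.59 on naive stimulated arrays, against 3.64, 3.66, 3.57 and 4.08 on naive resting arrays, and rose by 0.67 ± 0.12 (adjusted p = 1.84e-04). In memory cells its levels overlapped, at 3.83 to 4.08 on stimulated and 3.75 to 3.97 on resting arrays (0.17 ± 0.12, adjusted p = 0.243). The direction of Mcl1 in stimulated naive cells therefore depends on the probe. The mean of both probes fell by 0.32 ± 0.11 in memory cells (adjusted p = 0.0152) and was at 0.0215 ± 0.11 in naive cells (adjusted p = 0.869).

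The pore formers moved little beside these genes. Bax (minus strand, within chr7:41641827-41641982, a probe that joins 2 stretches 10 times per array) was at 3.12 to 3.42 on memory stimulated arrays, against 2.29 to 3.17 on memory resting arrays. It rose by 0.63 ± 0.18 in memory cells (SE; adjusted p = 0.00521), a call that was lost with quantile scaling (0.21, adjusted p = 0.243) and in the authors' deposited table (0.19, adjusted p = 0.283). In naive cells Bax was at 3.26 to 3.36 on stimulated and 2.72 to 3.45 on resting arrays and did not pass the test (0.34 ± 0.18, adjusted p = 0.105). It did pass with array weights (0.40, adjusted p = 0.00111), without naive resting replicate 4 (0.49, adjusted p = 0.0152) and without memory resting replicate 4 (0.34, adjusted p = 0.048). Replicate 4 was the highest resting array of Bax in both kinds of cell and brought about the overlap.

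Bak1 (minus strand, chr17:25204734-25204793) was at 0.93 to 1.24 on memory stimulated arrays, against 0.51 to 0.71 on memory resting arrays. On naive stimulated arrays it was at 0.96 to 1.15, against 0.40 to 0.93 on naive resting arrays. The rise was 0.48 ± 0.12 in memory cells (SE; adjusted p = 0.00197) and 0.46 ± 0.12 in naive cells (adjusted p = 0.00283). The other Bak1 probe (minus strand, chr17:25205887-25205946) was not called, at 0.33 ± 0.15 in memory (adjusted p = 0.0695) and 0.22 ± 0.15 in naive cells (adjusted p = 0.221).

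The BH3-only genes split in direction. Bid, whose protein is cleaved by caspase-8 and links death receptors to mitochondria, rose. Its only probe (minus strand, chr6:120918747-120918806) was at 2.68, 2.52, 2.65 and 2.49 on memory stimulated arrays, against 0.16, 0.36, 0.48 and 0.95 on memory resting arrays. On naive stimulated arrays it was at 2.82, 2.50, 2.46 and 2.40, against 0.07, 0.43, 0.48 and 1.13 on naive resting arrays. The stimulated arrays all lay more than 1 unit above the resting ones, among which replicate 4 was highest in both kinds of cell. The rise was 2.10 ± 0.20 in memory cells (SE; 4.29-fold, adjusted p = 1.79e-07) and 2.02 ± 0.20 in naive cells (4.04-fold, adjusted p = 2.88e-07).

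Bbc3, which encodes PUMA, a BH3-only protein induced by p53 and by FOXO3, had the largest fall of the family. Its probe (plus strand, chr7:14080459-14080518) was at 0.49, 1.39, 1.54 and 1.24 on memory stimulated arrays, against 4.83, 5.08, 4.97 and 5.69 on memory resting arrays. On naive stimulated arrays it was at 0.89, 1.86, 1.75 and 1.62, against 4.77, 5.45, 5.30 and 6.01 on naive resting arrays. Replicate 1 was the lowest array in each of the 4 groups, and the groups stayed about 3 units apart. The change was -3.98 ± 0.30 in memory cells (SE; 15.8-fold lower, adjusted p = 9.85e-09) and -3.85 ± 0.30 in naive cells (14.5-fold lower, adjusted p = 1.44e-08).

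Bcl2l11, which encodes BIM, was read by 3 probes that rose by very different amounts. The printed probe, which joins 2 stretches of the genome, was at 1.39, 1.86, 1.97 and 1.98 on memory stimulated arrays, against -0.35, -0.78, -0.53 and -0.40 on memory resting arrays. On naive stimulated arrays it was at 0.73, 0.82, 0.80 and 0.87, against -0.49, -1.48, -1.51 and -1.34 on naive resting arrays. It rose by 2.32 ± 0.20 in memory cells (SE; 4.98-fold, adjusted p = 6.18e-08) and by 2.01 ± 0.20 in naive cells (4.03-fold, adjusted p = 3.12e-07). The probe nearest the 5′ end (plus strand, within chr2:127869853-127870534) rose by 2.72 ± 0.31 in memory and 3.07 ± 0.31 in naive cells.

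The third Bcl2l11 probe, at the 3′ end (plus strand, chr2:127903168-127903227), stands for the gene in the counts. It was at 4.97, 5.43, 5.50 and 5.66 on memory stimulated arrays, against 4.80, 4.84, 4.95 and 5.27 on memory resting arrays. On naive stimulated arrays it was at 4.48, 4.85, 4.89 and 5.0, against 4.35, 4.21, 4.18 and 4.66 on naive resting arrays. The groups overlapped in both kinds of cell, and the rises of 0.42 ± 0.17 in memory (SE; adjusted p = 0.0376) and 0.46 ± 0.17 in naive cells (adjusted p = 0.0262) do not hold across settings. With quantile scaling the values were -0.23 in memory and -0.05 in naive cells, and in the authors' deposited table -0.24 in memory and -0.26 in naive cells, none of them called. Each call also ended on leaving out any of several single arrays (memory resting replicates 1, 2 and 3 and memory stimulated replicates 2, 3 and 4, with 0.33 to 0.42, and naive resting replicates 2 and 3 and naive stimulated replicates 2, 3 and 4, with 0.39 to 0.44). The 3 probes cover 33315 bases, and the rise of Bcl2l11 rests on the other 2.

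Bad was also read by 2 probes, and the one that stands for it in the counts lies on the opposite strand of the gene. It runs along the minus strand at chr19:6770968-6771027, whereas Bad and its other probe run along the plus strand, as do the RefSeq windows of the gene. The remaining 17 member probes whose gene strand is known run with their gene. By the labels' protocol the labelled cRNA is antisense, so a minus-strand probe reads minus-strand RNA, and its values are not a measure of Bad mRNA. It was at -4.05, -4.36, -2.95 and -4.64 on memory stimulated arrays, against -1.93, -2.07, -2.49 and -1.97 on memory resting arrays, and at -4.14, -3.83, -5.24 and -4.77 on naive stimulated arrays, against -2.15, -2.97, -2.87 and -2.40 on naive resting arrays. The change was -1.89 ± 0.35 in memory (SE; adjusted p = 1.92e-04) and -1.90 ± 0.35 in naive cells (adjusted p = 1.82e-04).

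The sense probe of Bad (plus strand, chr19:6761992-6762051) was well above background on all 8 resting arrays and on none of the 8 stimulated arrays. It was at -6.70 to -5.38 on memory stimulated arrays, against -3.74 to -3.36 on memory resting arrays, and at -6.82 to -5.47 on naive stimulated arrays, against -4.07 to -3.45 on naive resting arrays. The stimulated levels are only bounds. By the group means and the limit given below, Bad was nominally at least 3.76-fold lower in stimulated memory cells. In stimulated naive cells it was nominally at least 3.45-fold lower. The background limit of the Bad spot itself may be higher than the one used, so these folds are not assured. These bounds carry no error of sampling and were not tested. The probe passed the filter on dim signals only through the resting arrays. The limma fit took the stimulated signals as measured, at -2.55 ± 0.29 in memory and -2.21 ± 0.29 in naive cells (SE). Its p-values are left out, since they rest on signals below the background limit. For each bound the resting mean was set against a stimulated mean in which every array counts at the lowest signal of any probe well above background there, or at the Bad signal where that was larger.

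Pmaip1, which encodes NOXA, the BH3-only partner of MCL-1, did not pass the test. Its probe (chromosome 18, plus strand, 66857729 to 66857788) was at 1.23 to 1.61 on memory stimulated arrays, against 1.72 to 2.27 on memory resting arrays, which do not overlap (-0.48 ± 0.24, adjusted p = 0.0926). It was at 0.96 to 2.08 on naive stimulated arrays, against 1.54 to 2.56 on naive resting arrays (-0.32 ± 0.24, adjusted p = 0.256). In memory cells the difference was called with quantile scaling (-0.71, adjusted p = 0.0115) and in the authors' deposited table (-0.71, adjusted p = 0.00911).

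**Figure D2:**
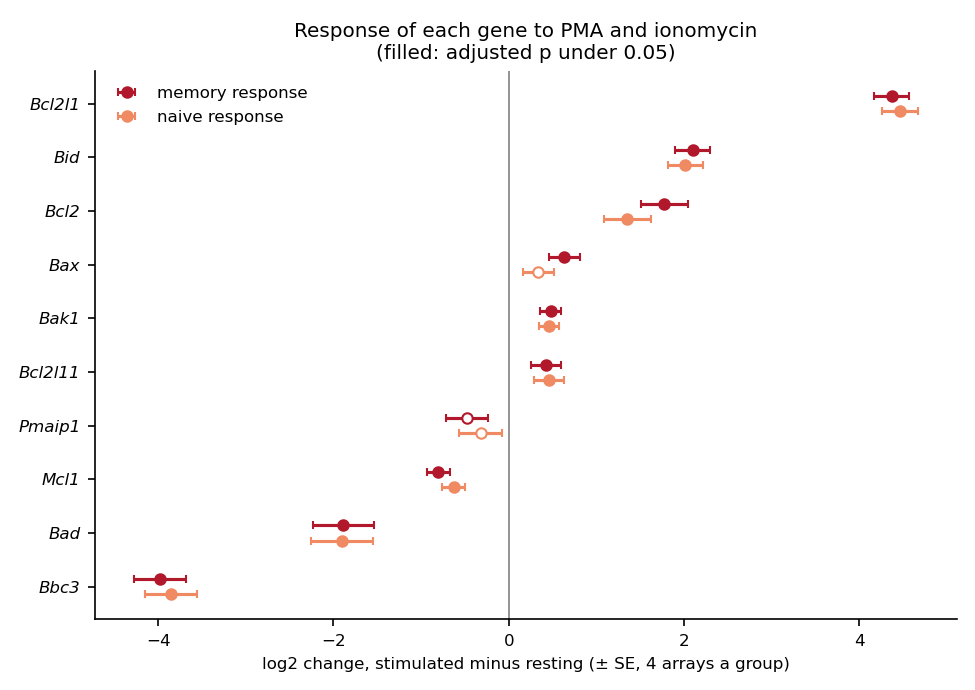
Change of each gene with stimulation in memory and in naive cells, as log2 change with SE (n = 4 arrays a group), from the probe that stands for the gene. Filled points have an adjusted p under 0.05. Bcl2l1 and Bbc3 are at the ends, at 4.37 and -3.98 in memory and 4.47 and -3.85 in naive cells, and the memory and naive points of a gene lie within 0.42 of each other. The points of Bad come from a probe of the opposite strand.

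Counting each of the 19 probes on its own, 12 rose and 4 fell in memory cells, where 70.6% of all 27350 probes were called, and 12 rose and 4 fell in naive cells, where 69.2% were called. In both kinds of cell the 4 that fell include both Bad probes. The sense one was not well above background on any stimulated array, and the other is of the opposite strand. The probes of a gene are not replicates, since they read the same samples. The amplification was primed with oligo-dT, so signal is tied to how near a probe lies to a poly(A) end, and a gene with more than 1 end or splice form can give a different value at each probe. Bcl2l1, Bcl2 and Bcl2l11 had 1 direction at all their probes with the scaling used here, although the 3′ probe of Bcl2l11 turned with quantile scaling, and Mcl1 did not.

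**Figure D3:**
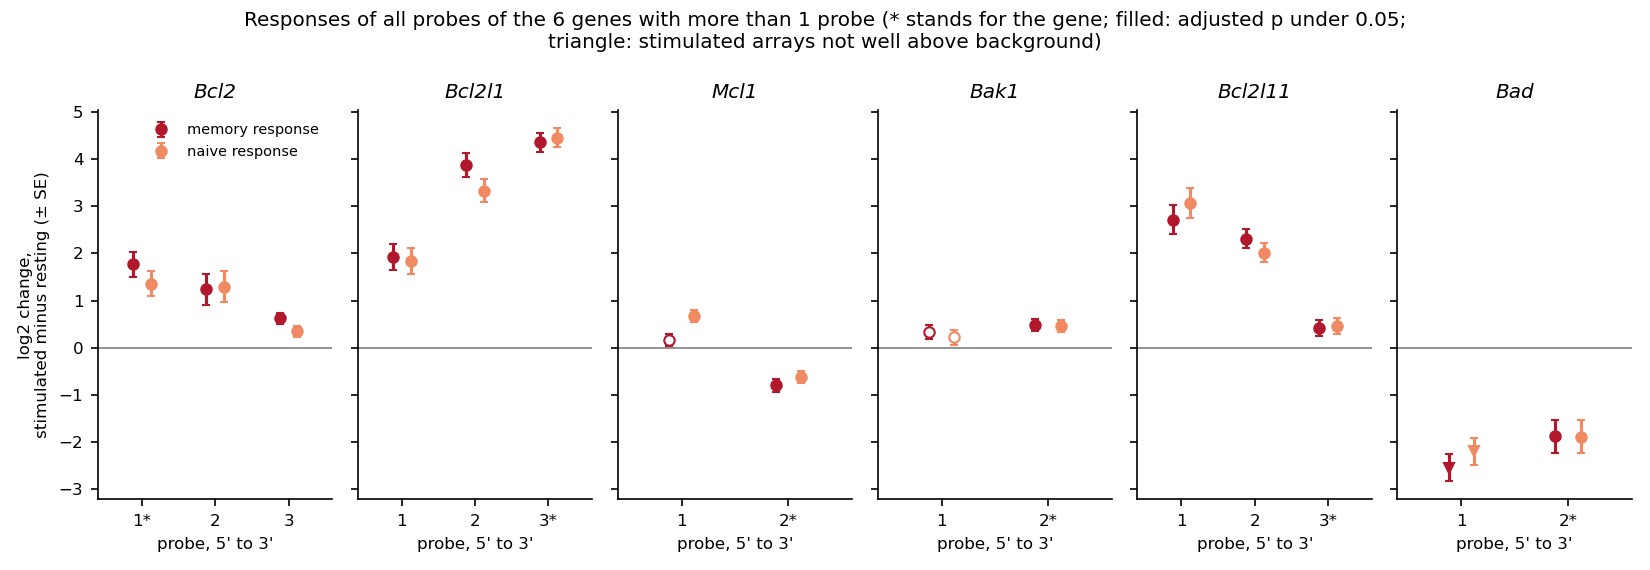
Log2 change with stimulation (± SE) for every probe of the 6 genes with more than 1 probe, ordered from the 5′ to the 3′ end of the gene, in memory and naive cells. An asterisk marks the probe that stands for the gene, filled points have an adjusted p under 0.05, and triangles mark a probe not well above background on stimulated arrays. The Bad probe with the asterisk is of the opposite strand. Bcl2l11 ranges from 3.07 at the first probe to 0.42 at the last, and the Mcl1 probes lie on either side of 0 in naive cells.

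The comparison of memory with naive cells asks how the family is set before and after stimulation. At rest 2 of the 10 genes were called, both higher in memory cells, where 21.5% of all genes were called (13.9% higher and 7.66% lower). This fit did not take the replicate numbers as pairs. With the replicate number as a block, 2 of the 10 genes were higher and 1 lower at rest, where 5398 of 18405 genes were called. After stimulation 2 were higher and 1 lower, where 24.2% of all genes were called (10.1% higher and 14.1% lower). The 4 memory arrays lay all above or all below the 4 naive arrays for 3 genes at rest, against 22.6% of all genes, and for 2 after stimulation, against 27.7%. These counts are near the background. The differences and the responses share arrays, so they are not independent of each other.

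Bcl2 was higher in memory cells by all 3 probes, in both states. Its 3′ probe, the most even between replicates, was at 3.05, 3.15, 3.16 and 3.11 on memory stimulated arrays, against 1.52, 1.67, 1.59 and 1.63 on naive stimulated arrays. At rest it was at 2.43, 2.74, 2.59 and 2.23 on memory arrays, against 1.28, 1.38, 1.37 and 1.01 on naive arrays. No memory array overlapped a naive one in the same state. The difference was 1.52 ± 0.12 after stimulation (SE; 2.86-fold, adjusted p = 3.95e-07) and 1.24 ± 0.12 at rest (2.36-fold, adjusted p = 2.45e-06).

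The Bcl2 probe that stands for the gene differed by 1.26 ± 0.27 after stimulation (SE; adjusted p = 0.00311) and by 0.84 ± 0.27 at rest (adjusted p = 0.0357). At rest its memory and naive arrays overlapped through memory resting replicate 4, and the call was lost with median scaling (0.63, adjusted p = 0.0743) and on leaving out any of memory resting replicates 1, 2 and 3 or naive resting replicates 2 and 4 (adjusted p up to 0.104). The second Bcl2 probe differed by 1.14 ± 0.33 after stimulation (adjusted p = 0.0215) and by 1.20 ± 0.33 at rest (adjusted p = 0.0187).

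Bcl2l11 was also higher in memory cells, though not by every probe in both states, and the calls of its 3′ probe depended on the setting. The printed probe differed by 0.99 ± 0.20 after stimulation (SE; adjusted p = 0.00277), with no overlap, and by 0.69 ± 0.20 at rest (adjusted p = 0.0281), where naive resting replicate 1 overlapped the memory arrays. The 3′ probe differed by 0.58 ± 0.17 after stimulation (adjusted p = 0.0216) and by 0.62 ± 0.17 at rest (adjusted p = 0.0176). The 5′ probe differed by 0.97 ± 0.31 at rest (adjusted p = 0.0428) and, after stimulation, by 0.62 ± 0.31 (adjusted p = 0.178), which was not called. The calls at the 3′ probe were lost at rest with median scaling (0.41, adjusted p = 0.0682) and without naive resting replicate 2 or 3 or memory resting replicate 4 (adjusted p = 0.0515 to 0.0576). After stimulation its call was lost without naive stimulated replicate 1 or memory stimulated replicate 2, 3 or 4 (adjusted p = 0.051 to 0.0616).

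Mcl1 was lower in memory cells after stimulation by both probes, by 0.55 ± 0.13 (SE; adjusted p = 0.00727) and by 0.42 ± 0.12 (adjusted p = 0.0256) on the log2 scale, with no overlap at either. At rest the probe that stands for the gene was at -0.37 ± 0.13 relative to naive cells (adjusted p = 0.0573) with no overlap, and the other at 0.09 ± 0.12 (adjusted p = 0.69). With the replicate number as a block, the probe that stands for the gene was called at rest (-0.37 ± 0.08, adjusted p = 0.00417). It was also called, among other settings, with median scaling (-0.58) and with array weights (-0.38).

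The remaining genes were not called between memory and naive cells in either state in the main fit. Bcl2l1 was at 0.39 ± 0.20 after stimulation (adjusted p = 0.183) and 0.48 ± 0.20 at rest (adjusted p = 0.106), where the memory arrays (-2.02 to -1.57) did not overlap the naive ones (-2.41 to -2.26). Bid, Bak1 and Pmaip1 were within 0.17 of 0 in both states. Bbc3 was at -0.36 ± 0.30 after stimulation and -0.24 ± 0.30 at rest, and Bax at -0.04 ± 0.18 after stimulation and -0.34 ± 0.18 at rest. Some calls were gained in other settings. With array weights Bcl2l1 was called at rest (0.425, adjusted p = 0.00847) and after stimulation (0.44, adjusted p = 0.0123). Bax at rest (-0.34, adjusted p = 0.00912) and Pmaip1 after stimulation (-0.45, adjusted p = 0.0269) were also called with array weights. Bax was called at rest without memory resting replicate 4 (-0.51, adjusted p = 0.0307) too. The sense probe of Bad was at 0.20 ± 0.29 at rest, and after stimulation it was below background in both groups. A p-value that misses the threshold does not show that these levels are equal.

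**Figure D4:**
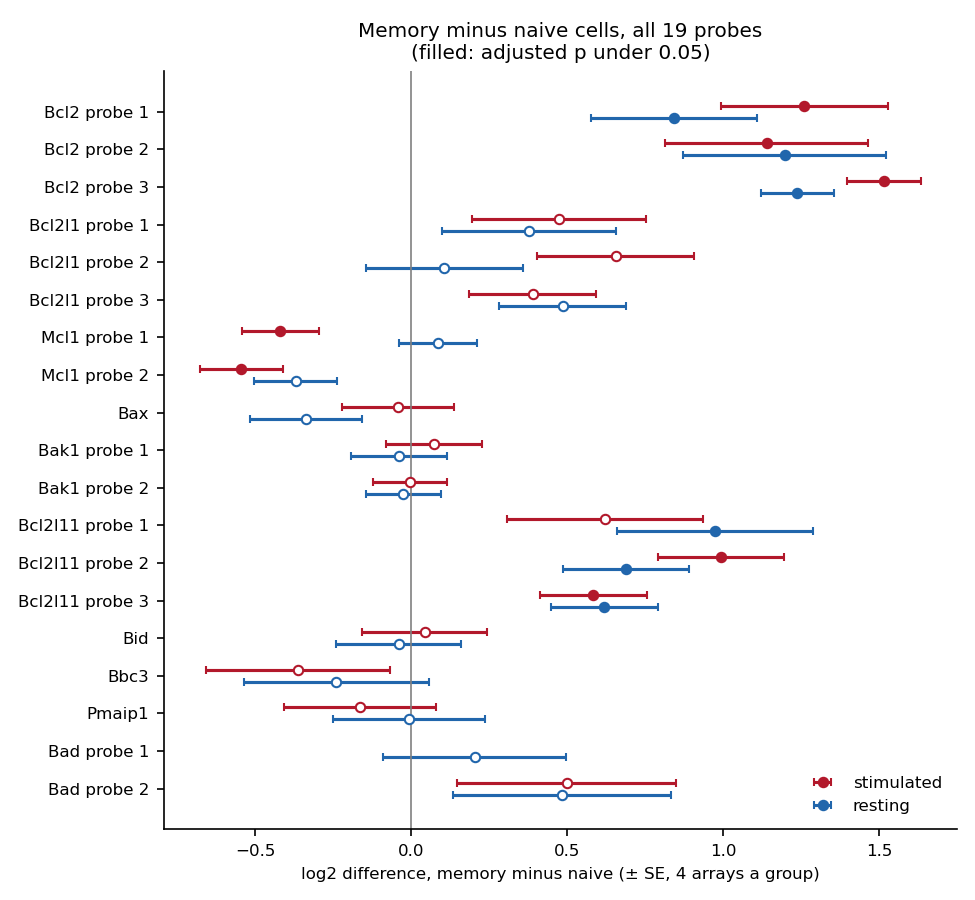
Log2 difference between memory and naive cells (± SE, n = 4 arrays a group) for all 19 probes, after stimulation and at rest, with probes numbered from the 5′ end of the gene. Filled points have an adjusted p under 0.05, and the stimulated value of the Bad sense probe is left out as below background. The 3 Bcl2 probes lie between 0.84 and 1.52 in both states, and the Bid and Bak1 probes lie near 0.

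By probe, 5 of 19 were higher and 2 lower in memory cells after stimulation, where 20.9% of all probes were called, and 6 were higher and 0 lower at rest, where 18.4% were called. The test of whether the response differs between memory and naive cells called 0 of the 10 genes with limma, against 20% of all genes (5.9% with a larger and 14.1% with a smaller value in memory cells). The differences ranged from -0.17 to 0.42 with SE of 0.17 to 0.50, and 0 of the genes had an unadjusted p under 0.05. Of the 19 probes 0 were called, where 15.9% of all probes were, and 1 had an unadjusted p under 0.05. This was the 5′ probe of Mcl1, at -0.51 ± 0.18 (adjusted p = 0.0637). The count was also 0 with array weights, quantile and median scaling and the authors' deposited table.

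Across all 16 arrays, the genes outside the family whose levels followed that of Bcl2l1 most closely were Cd200, which encodes an inhibitory surface ligand (r = 0.9982), Rgs16, a regulator of G protein signalling (r = 0.9976), Qdpr (r = 0.9971), Ruvbl1 (r = 0.9957) and Gcsh (r = 0.9954). These are Pearson correlations of log2 levels over arrays that fall into a stimulated and a resting cluster, so they describe a shared difference between those clusters.

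Windows of 250 bases before the annotated starts were searched for short motifs on both strands, because the genes at the ends of the family moved in opposite directions. RefSeq (GRCm38.p6) held 15 windows for 9 of the 10 genes. The FOXO letters GTAAACA were in 2 of the 15 windows, of Bcl2l11 and Bbc3, and in 3.17% of all 32851 windows. The NFAT core GGAAAA was in 3 of the 15 windows, of Bcl2l1 and Bak1, and in 20.4% of all, so its share is near that of all windows. The E-box CACGTG was in 2 of the 15 windows, of Bax and Bbc3 (6.02% of all). The EGR letters GCGNGGGCG were in 3 of the 15, of Bcl2l11 and Bbc3 (4.7% of all). Bcl2l1 and Bbc3 have 3 windows each and so more chances of a match. The AP-1 letters TGANTCA (6.75% of all) and the STAT letters TTCNNNGAA (7.02% of all) were in none of the 15 windows. A match is a run of letters and not a shown site of binding, and the motifs do not contain each other.

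The window of Bcl2l1 is on the minus strand at chr2:152830718-152830967 and that of Bbc3 on the plus strand at chr7:16310011-16310260, both on GRCm38.p6. They are the Bcl2l1 window nearest to the 3′ end among those with the NFAT core and the Bbc3 window with the FOXO letters, which stand in capitals. In the Bbc3 window the letters are on the opposite strand and so read TGTTTAC.
Bcl2l1: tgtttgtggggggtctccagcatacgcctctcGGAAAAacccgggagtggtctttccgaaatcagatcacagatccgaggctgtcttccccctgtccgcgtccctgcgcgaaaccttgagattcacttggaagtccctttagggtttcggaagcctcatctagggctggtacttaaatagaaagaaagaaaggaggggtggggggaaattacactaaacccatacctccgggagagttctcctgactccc
Bbc3: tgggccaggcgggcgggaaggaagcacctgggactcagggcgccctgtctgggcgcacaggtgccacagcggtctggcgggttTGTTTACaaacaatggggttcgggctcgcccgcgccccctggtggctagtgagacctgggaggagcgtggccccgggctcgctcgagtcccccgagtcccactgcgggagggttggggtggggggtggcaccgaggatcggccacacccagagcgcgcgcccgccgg

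Other genes of the family and its pathway were read from 4 lists. Of 18 further BCL-2 family genes 14 were on the array and 11 were tested. Of these 3 rose and 7 fell in memory cells, where 31.4% of all genes rose and 39.1% fell. The median change was -0.56 against -0.16 for all genes. In naive cells 4 rose and 5 fell, where 38.3% of all genes rose and 30.9% fell, with a median of -0.54 against 0.15. Bmf, a BH3-only gene, fell by 3.83 ± 0.20 in memory and 3.09 ± 0.20 in naive cells (SE). It was at -4.50 to -3.82 on memory stimulated arrays, against -0.52 to -0.13 on memory resting arrays, and at -4.23 to -3.27 on naive stimulated arrays, against -0.71 to -0.31 on naive resting arrays. Bmf and Bbc3 thus fell together.

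Bcl2a1b, which belongs to a group of nearly identical guardian genes known as A1, rose by 3.41 ± 0.15 in memory (SE; 10.7-fold, adjusted p = 4.17e-11) and by 4.31 ± 0.15 in naive cells (19.9-fold, adjusted p = 4.09e-12). The probe may read the other A1 copies, so the gene is uncertain. It was at 6.91 to 7.03 on memory stimulated and 6.37 to 6.53 on naive stimulated arrays, and at 3.41 to 3.88 on memory resting and 1.90 to 2.68 on naive resting arrays. The response was smaller in memory cells by 0.90 ± 0.22 (adjusted p = 0.00901), and the level was higher in memory cells by 0.48 ± 0.15 after stimulation (adjusted p = 0.0337) and 1.38 ± 0.15 at rest (adjusted p = 1.2e-05).

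Among the other tested family genes, Bik rose by 0.82 in memory and 0.79 in naive cells, and Bnip1 rose by 1.17 in memory and 0.62 in naive cells. Bnip3l, which encodes a mitophagy receptor, fell by 2.15 in memory and 2.14 in naive cells, and Bcl2l12 fell by 0.91 in memory and 1.45 in naive cells. Bnip2 fell by 0.56 in memory and 0.70 in naive cells, and Bcl2l13 fell by 0.43 in memory and 0.54 in naive cells. Bnip3 fell by 1.54 in memory cells and was at -0.78 in naive cells (adjusted p = 0.198). Bcl2l2, which encodes the guardian BCL-W, was at 0.14 in memory and -0.28 in naive cells and was called in neither, but was 0.45 higher in memory cells after stimulation (adjusted p = 0.0471). Bcl2l14 differed by -2.91 ± 0.88 in memory and 3.16 ± 0.88 in naive cells, with an SD of 1.47 among memory resting and 1.99 among naive resting arrays, and an SD of 0.84 among memory stimulated and 0.91 among naive stimulated arrays. Its responses differed by -6.06 ± 1.25 (adjusted p = 0.00313).

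Downstream of the mitochondria, 20 genes of the apoptosome, the caspases and the inhibitors of apoptosis were tested. Of these 5 rose and 11 fell in memory cells (median -0.47), where 31.4% of all genes rose and 39.1% fell. In naive cells 5 rose and 13 fell (median -0.46), where 38.3% of all genes rose and 30.9% fell. Casp9 and Apaf1 encode parts of the apoptosome. Casp9 fell by 3.50 ± 0.14 in memory and 3.49 ± 0.14 in naive cells (SE), and Apaf1 fell by 2.48 ± 0.14 in memory and 2.58 ± 0.14 in naive cells. Cycs, which encodes the cytochrome c that the Apaf1 product binds, rose by 2.33 ± 0.13 in memory and 2.36 ± 0.13 in naive cells. Endog, a mitochondrial nuclease, rose by 1.59 ± 0.19 in memory and 1.22 ± 0.19 in naive cells. Casp9 was at -1.62 to -1.41 on memory stimulated arrays, against 1.74 to 2.16 on memory resting arrays, and the naive groups were apart in the same way.

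Upstream of Bid, 12 genes of the death receptor pathway were tested. Of these 4 rose and 2 fell in memory cells (median 0.35), where 31.4% of all genes rose and 39.1% fell. In naive cells 5 rose and 3 fell (median 0.36), where 38.3% of all genes rose and 30.9% fell. Fasl, the ligand of the receptor Fas, rose by 1.81 ± 0.24 in memory and 3.69 ± 0.24 in naive cells (SE), a difference of -1.88 ± 0.34 (adjusted p = 0.00133), and was higher in memory cells by 3.27 ± 0.24 after stimulation and 5.15 ± 0.24 at rest. Cflar, which encodes the caspase-8 inhibitor FLIP, rose by 2.11 ± 0.15 in memory and 1.51 ± 0.15 in naive cells. Tnfrsf1a, a receptor of TNF, fell by 0.86 in memory and 0.62 in naive cells. The adaptor Tradd was at -0.26 in memory cells (adjusted p = 0.0551) and fell by 0.66 in naive cells.

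Of 23 genes that regulate the family's transcription, stability or place in the cell, 8 rose and 8 fell in memory cells (median 0.01). Of all genes 31.4% rose and 39.1% fell there. In naive cells 9 rose and 5 fell (median 0.12), where 38.3% of all genes rose and 30.9% fell. Myc rose by 6.02 ± 0.11 in memory and 4.72 ± 0.11 in naive cells (SE), a difference of 1.30 ± 0.16 (adjusted p = 5.02e-05). Gimap5, which lymphocytes need to survive, rose by 0.96 ± 0.13 in memory and 1.62 ± 0.13 in naive cells. Il7r, the receptor of the cytokine that sustains Bcl2 in resting T cells, fell by 5.31 ± 0.24 in memory cells and fell by 5.65 ± 0.24 in naive cells. Bcl3, which encodes a partner of NF-kB, fell by 3.61 ± 0.18 in memory and 3.85 ± 0.18 in naive cells.

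**Figure D5:**
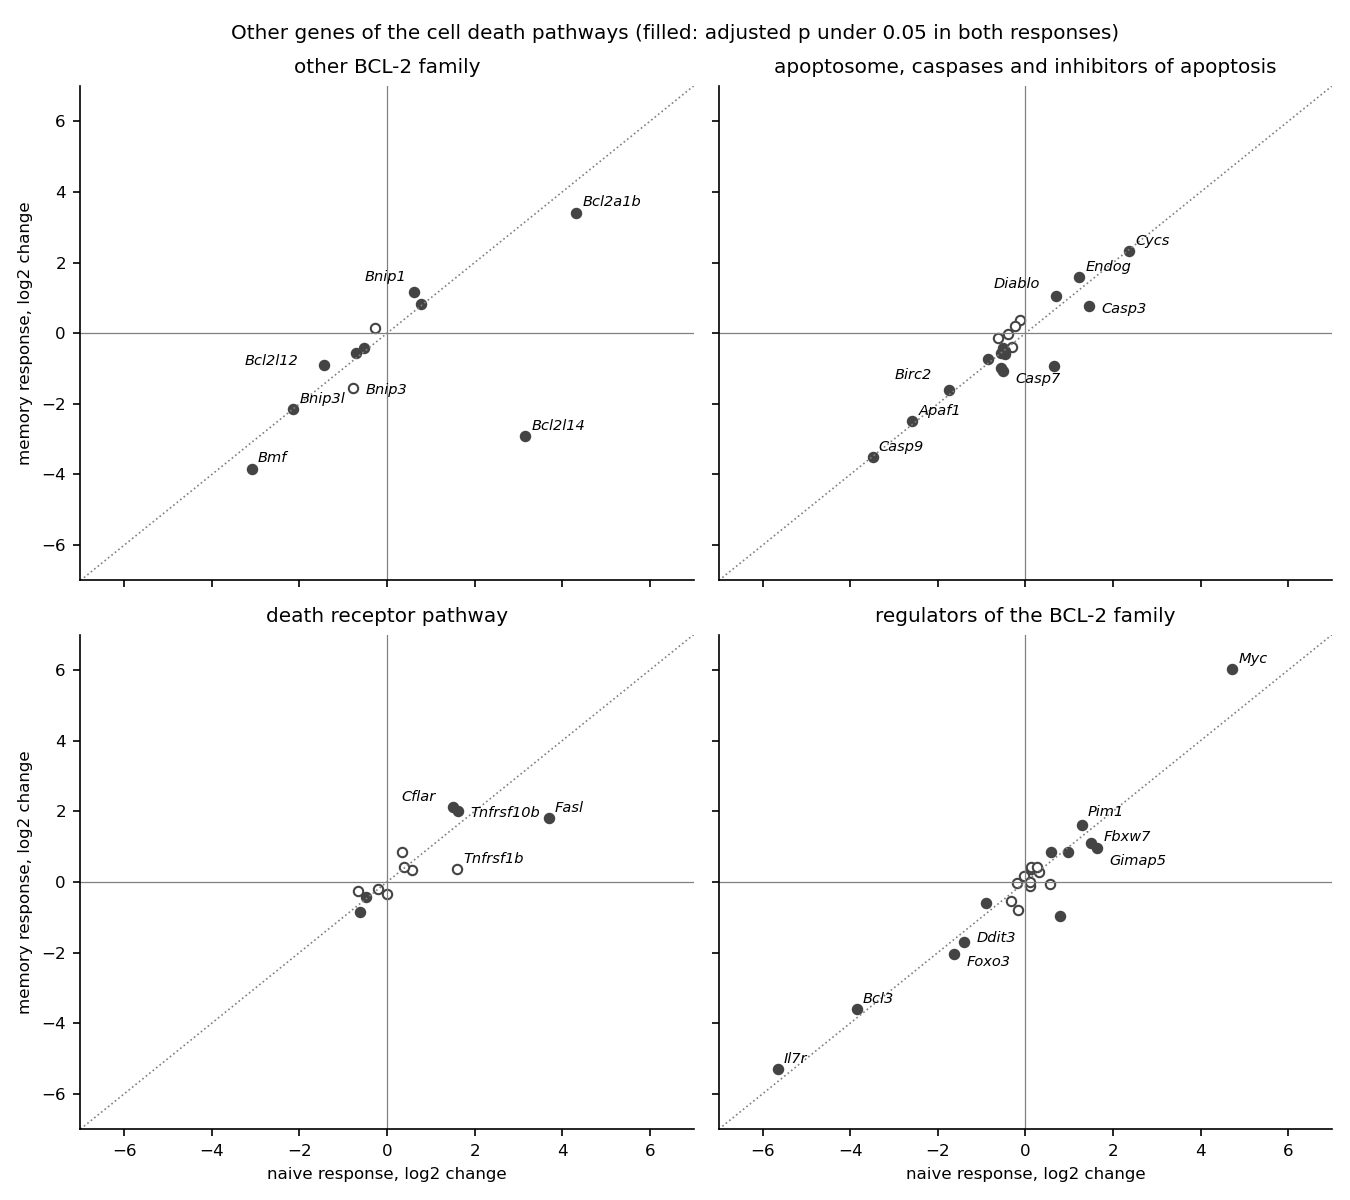
Response of memory cells against that of naive cells, as log2 changes, for the tested genes of 4 pathway lists. Filled points have an adjusted p under 0.05 in both responses, the dotted line marks equal responses, and genes that changed by more than 1 unit are named, with a few labels moved aside. Most points lie near the line, Bcl2l14 lies furthest from it at -2.91 in memory and 3.16 in naive cells, Fasl and Bcl2a1b lie below it at 1.81 and 3.41 in memory cells, and Myc lies above it.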

How the data were processed

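Values came from 16 1-colour arrays of 60-base probes, 4 per group. The authors deposited scanner output of Agilent Feature Extraction 9.5.3.1 (per the file headers), whose processed signal is an intensity after background subtraction on a linear scale. They also deposited a table of intensity values on a linear scale, for which no source used here states the normalization. Per the labels' protocols, RNA was amplified with an oligo-dT primer and the cRNA labelled with Cy3. Outlier spots were dropped, spots of a probe averaged, and log2 of the processed signal taken minus the array's 75th percentile over non-control probes. Probes well above background on at least 3 arrays of a group were tested, and the probe with the highest mean stood for a gene. RefSeq named 32715 probes and 8459 kept the file's name. limma 3.58.1 (R 4.3.3; files read by data.table, version 1.17.8) was fitted to all 16 arrays with Benjamini-Hochberg adjustment over all genes, or over all probes where single probes are given. Its steps were tested on simulated data, and figures used Python 3.11.15 and matplotlib 3.10.9. No columns of other samples were used (0). The number of arrays limits the precision.

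The members and gene lists were chosen with earlier results of these data known. Named were all 10 genes with every probe, all measured genes of the further family list, the 2 largest rises and 2 largest falls of each other pathway list among called genes, and the 5 genes most correlated with the member of largest response. The alternatives were other background correction, scaling, filters, probe choices, the authors' table, fewer arrays, a replicate block, array weights and leaving out each array. Replicates were 4 separate occasions, and the labels do not say that a number marks an occasion. Deviations from the group means of same-numbered memory and naive resting arrays correlated at 0.3028 to 0.585, all above 0.1. Those of differently numbered arrays of different groups correlated at -0.3754 to 0.3371, which overlaps that range. The numbers may mark pairs at rest, which these values do not settle. The main fit still had no block, and a fit with the replicate number as a block is given as an alternative. In the other comparisons the numbers were not taken as pairs.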

Additional observations from a re-analysis of the deposited data

Results flagged for a closer look

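Among 40 sets of 4 arrays (10 genes in 4 groups, by the probe that stands for each gene), 1 held an array far from the others. The Bcl2 level of memory stimulated replicate 1 was 3.71, against 4.13 for the nearest of the other 3. The gap was 0.919 of the whole range, above the critical value for 4 arrays in Dixon's test. Chance gives about 1 such set in 20. The cause was not tested. The other probes of these genes were not screened, and some also had an array apart. The third Bcl2l1 probe was at -4.07 on naive resting replicate 1, against -5.50 to -5.45 on the other naive resting arrays. The printed Bcl2l11 probe was at -0.49 there, against -1.51 to -1.34. The second Bcl2 probe was at -1.33 on memory resting replicate 4, against -0.04 to 0.15 on the other memory resting arrays. No response of the 10 genes differed between memory and naive cells by its test (0 called).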

How the results depend on the processing

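Of 1385 values of the 10 genes under alternatives, 1309 kept their side of the threshold without a reversal, 45 lost a call, 22 gained one and 9 reversed. A reversal is a turn in the direction of a called change, so uncalled values that changed sign count as kept. Bid at rest, for example, lay between -0.25 and 0.16 and counts 0 reversals. Of 3082 values of the other named genes, 2949 were kept in this sense, 58 lost a call, 75 gained one and 0 reversed. The reversals were Mcl1 in naive cells (0.0215 as the mean of its probes, 0.67 at its 5′ probe) and in memory cells (0.17 at that probe), the 3′ probe of Bcl2l11 in memory cells (-0.13 with normexp correction, -0.23 with quantile scaling, -0.24 in the authors' deposited table) and in naive cells (-0.0525 with quantile scaling, -0.26 in that table), and the opposite-strand probe at Bad in memory cells (0.22 with normexp).

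With normexp background correction, 5 of the 10 genes were called in the memory response, 5 in the naive response, 0 after stimulation and 0 at rest, and over all genes 6618 in the naive response, 452 after stimulation, 520 at rest and 213 in the response difference. In the memory response 6767 genes rose and 3107 fell with it. Its background means were -958 to -305.3 on 3 arrays, which held 34 spots far below their local background, against -11.66 to -6.34 on the others. The part of those 34 spots was not tested on its own. A fit on unflagged spots, chosen after seeing the data, called 9 of the 10 genes in the memory response, 7 in the naive response, 3 after stimulation and 3 at rest. Of all 18405 genes it called 5973 higher and 5385 lower in the memory response, 6592 higher and 5009 lower in the naive response, 1516 higher and 1583 lower after stimulation, 1682 higher and 1690 lower at rest, and 1103 higher and 1398 lower in the response difference.

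Median scaling moved the median of all genes to 0.15 in the memory response, -0.22 at rest and 0.34 in the response difference, called 6271 genes at rest (1895 higher, 4376 lower) and 6705 in the response difference (4831 higher, 1874 lower), and split the memory response into 7495 and 5404 and the stimulated difference into 3051 and 1908. At rest it left 2 of the 10 genes called, Mcl1 (-0.58) and Bax (-0.55), both lower in memory cells. Without a filter 1 of the 10 genes was called at rest, against 3744 of all 27672 genes. Array weights called 5 of the 10 genes after stimulation and 5 at rest, and 8458 genes after stimulation, 9247 at rest and 7714 in the response difference.

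Leaving out 1 array at a time, 8 to 9 of the 10 genes were called in the memory response, 7 to 9 in the naive response, 2 to 3 after stimulation, 0 to 4 at rest and 0 in the response difference. At rest the count was 0 without naive resting replicate 2, 4 without naive stimulated replicate 1, and 1 without memory resting replicate 1, 2 or 3 or naive resting replicate 3 or 4. Over all genes the counts were 12345 to 13282 in the memory response, 12047 to 12825 in the naive response, 3305 to 5087 after stimulation, 2804 to 5245 at rest and 3028 to 4302 in the response difference.

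Same-numbered arrays had deviation correlations of -0.2107 to 0.585, against -0.3754 to 0.3371 for differently numbered arrays of different groups. Of the same-numbered pairs 16 of 24 were above 0.1, and 13 of 16 arrays were nearest to those of their own number. All 4 pairs were above 0.1 between memory and naive resting cells, so the numbers may mark pairs there. The main values at rest come from the fit without a block. Each other comparison had at least 1 pair below 0.1, and there the numbers were not taken as pairs. With the replicate block 9 of the 10 genes (13614 of all genes) were called in the memory response, 8 (13379) in the naive response, 3 (5729) after stimulation, 3 (5398) at rest, where Mcl1 was added (-0.37, adjusted p = 0.00417), and 0 (4750) in the response difference. Slide as a block was not run, because each slide held 1 group. Probes near background, such as the sense probe of Bad, give bounds only. The causes of these shifts were not tested.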
